A study of Mus musculus with 59 samples.

Results

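Heterozygosity for Ash1l was compared with the wild type in the prefrontal cortex of female mice that had been given fluoxetine. The libraries were those whose column names carry the codes ASH_HfF (HT fluoxetine females, n = 5) and ASH_WfF (WT fluoxetine females, n = 5), which is 10 of the 59 libraries of the series. All 10 mice were C57BL/6J. The HT mice were heterozygous for Ash1l and the WT mice carried the wild-type gene, and both had received fluoxetine through the milk of the mother for 3 weeks, from postnatal day 3 to 24. Tissue was taken on postnatal day 25, and the same design was run with lithium and with vehicle in both sexes. The nature of the Ash1l allele is not given in the sources used here. The drug reached the pups by way of the mother, yet no label names a litter, dam or cage. P-values therefore cover only the spread between libraries of the same group, which was estimated over all 59 libraries, and effects of litter, dam or cage cannot be told apart from genotype. RNA came from whole tissue, so fewer cells of a type and less RNA per cell cannot be told apart.

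Ash1l encodes a histone methyltransferase that places methyl groups on lysine 36 of histone H3 and is counted among the trithorax group, which opposes polycomb silencing. Fluoxetine is a selective serotonin reuptake inhibitor that blocks the serotonin transporter. Neuronal firing switches on a set of immediate early genes within minutes through calcium and kinase signalling to the transcription factors CREB and SRF. Glucocorticoids act through a nuclear receptor that switches on another set of genes, many of them in glia and blood vessels.

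The 10 libraries held 28.2 to 32.3 M reads in HT and 24.6 to 31.5 M reads in WT, against 24.5 to 36.3 M over the series (median 28.0 M). Mitochondrially encoded genes took 5.34 to 7.03% of the reads in HT and 5.01 to 7.94% in WT. The 20 most abundant genes took 8.82 to 10.6% in HT and 8.80 to 12.3% in WT. In all 10 libraries the sex-linked genes matched the female label. Outside these libraries, the library labelled WT vehicle female replicate 3 had an Ash1l level of 3557, below the 3641 to 4382 of the 29 HT libraries and the 4703 to 6218 of the other 29 WT libraries. Its level therefore goes against its label, which may be wrong. The main counts, list medians and differences of the contrasts with vehicle females are given with and without this library. For the difference from the mean of the other 5 strata, only the number of genes is given without it.

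Ash1l, on chromosome 3 (88950622 to 89079375, plus strand, GRCm38), was lower in HT. Its normalised counts were 4021, 3903, 3923, 3902 and 3887 in HT replicates 1 to 5, against 4833, 4927, 5115, 5059 and 5054 in WT replicates 1 to 5. All 5 HT libraries lay below all 5 WT libraries, and the levels averaged 3927 ± 53.9 in HT and 4998 ± 115 in WT (SD, n = 5 each). The log2 fold change, HT over WT, was -0.35 ± 0.056 (SE; limma, adjusted p = 0.000294). Of 134 genes tested within 5 Mb on either side of Ash1l, 1 other gene, Nes, an intermediate filament of neural progenitors, passed the threshold at a log2 fold change of 0.58. Over all genes tested 1.95% passed, so nothing about the region is read from 1 gene. Nes was singled out after its value was seen.

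Across the transcriptome, 348 of 17875 genes tested passed an adjusted p of 0.05 (limma, Benjamini-Hochberg), which is 1.95%. Of these, 244 were higher in HT (1.37%) and 104 were lower (0.582%). The median log2 fold change was 0.40 for the higher genes and -0.52 for the lower genes, while over all genes tested it was -0.0016, with 49.6% of genes above 0. Of the 348, 29 differed by at least 2-fold, 16 higher and 13 lower. After quantile normalisation the split was 202 higher and 146 lower. Spearman correlations of the log2 fold change across genes, which are not independent, were -0.158 for GC content and 0.224 for transcript length. GC content and length, here and where their trends were removed, are those of the longest transcript annotated for each gene. The length of the gene on the chromosome was not examined.

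**Figure D1:**
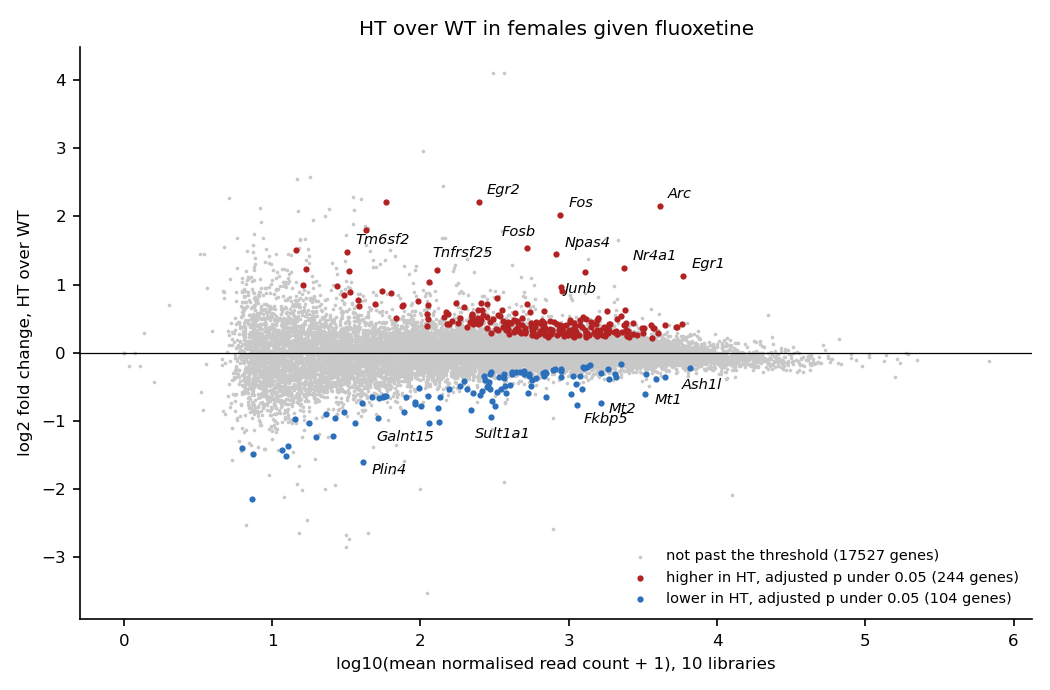
Log2 fold change, HT over WT fluoxetine females, of every gene tested, against its mean level over the 10 libraries on a log10 axis of the normalised count plus 1. Red points are the 244 genes higher in HT, blue points the 104 lower in HT and grey points those that did not pass; immediate early genes such as Fos and Arc are among the highest red points and Plin4 is among the lowest blue ones.

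The number of genes called depended on single libraries. It was 83 without HT replicate 4, 104 without HT replicate 3, 107 without WT replicate 3, 161 without HT replicate 5, 194 without WT replicate 1 and 219 without WT replicate 5. It was 584 without HT replicate 1 and 668 without HT replicate 2. A fit of the 10 libraries alone called 72 genes, 61 of them among the 348.

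The activity-induced immediate early genes held many of the largest increases. Of 36 members tested, 10 passed as higher in HT (27.8%, against 1.37% of all genes) by limma, while edgeR called 17 and DESeq2 20. None passed as lower by any of the 3 tools. Their median log2 fold change was 0.74, with 34 of 36 above 0, while 25 of 36 reached an unadjusted p under 0.05, which held for 15.6% of all genes tested. In 16 of the 36 the HT libraries all lay above the WT libraries, which held for 2.09% of all genes tested. The summed level of the list was 38141 to 67494 in HT and 26366 to 33808 in WT.

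Members of the Fos and Jun families rose. Fos, which encodes a subunit of the AP-1 transcription factor, is on chromosome 12 (85473890 to 85477273, plus strand). It had normalised counts of 1011, 887, 1586, 1860 and 1663 in HT replicates 1 to 5, against 404, 565, 197, 399 and 221 in WT replicates 1 to 5. The groups did not overlap, and HT replicates 3, 4 and 5 were the highest of the 10. The mean was 1401 ± 427 in HT and 357 ± 151 in WT, and the log2 fold change was 2.02 ± 0.30 (limma, adjusted p = 0.000148). Fosb, its close relative, had 353, 393, 855, 1357 and 1035 in HT, against 163, 285, 239, 335 and 216 in WT, a log2 fold change of 1.53 ± 0.34 (limma, adjusted p = 0.00931). Junb, a partner of the Fos proteins, had 1405, 1539, 2012, 1693 and 2326 in HT, against 757, 969, 582, 959 and 678 in WT, at 1.19 ± 0.29 (limma, adjusted p = 0.0186). Neither gene overlapped between genotypes, though the call of Fosb ended without HT replicate 4 and that of Junb without any 1 of HT replicates 3, 4 and 5 or WT replicate 3. Fosl2, at 0.87, and Jun, at 0.17, did not pass.

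Among the zinc finger factors of the EGR family, Egr2 and Egr1 rose. Egr2, on chromosome 10 (67535475 to 67542188, plus strand), had 172, 173, 675, 523 and 523 in HT, against 85.2, 107, 69.6, 83.6 and 47.4 in WT. HT replicates 1 and 2 were near 170 and still above the highest WT library, while HT replicates 3 to 5 stood well above them. The mean was 413 ± 228 in HT and 78.5 ± 21.8 in WT, a log2 fold change of 2.20 ± 0.34 (limma, adjusted p = 0.000251). Egr1, a marker of recent neuronal activity in cortex, had 5221, 5267, 11434, 9602 and 9606 in HT, against 4174, 4458, 3078, 3419 and 3049 in WT. Its log2 fold change was 1.12 ± 0.18 (limma, adjusted p = 0.000294), again with no overlap and the same 3 HT libraries highest. Egr4, at 0.78, and Egr3, at 0.26, did not pass.

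Arc, whose product shapes synapses and the traffic of AMPA receptors, is on chromosome 15 (74669083 to 74672570, minus strand). It had 4557, 3517, 9527, 6813 and 9140 in HT, against 1364, 1664, 978, 2558 and 954 in WT. The highest WT library stayed below the lowest HT library, and the means were 6711 ± 2678 in HT and 1504 ± 659 in WT (log2 fold change 2.15 ± 0.42; limma, adjusted p = 0.0034). Npas4, a factor induced by calcium entry in neurons (chromosome 19, 4984355 to 4990316, minus strand), had 1146, 1388, 1025, 1067 and 1248 in HT, against 638, 784, 243, 363 and 317 in WT. Here the HT libraries were close to each other and the WT libraries were spread, at 1175 ± 146 in HT and 469 ± 231 in WT. The log2 fold change of Npas4 was 1.45 ± 0.33 (limma, adjusted p = 0.00992), and its call ended without WT replicate 3.

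Of the orphan nuclear receptors of the NR4A family, Nr4a1 and Nr4a3 rose. Nr4a1 (chromosome 15, 101254269 to 101274795, plus strand) had 2232, 2035, 4286, 3958 and 4283 in HT, against 1319, 1368, 1074, 1936 and 1203 in WT, at a log2 fold change of 1.24 ± 0.27 (limma, adjusted p = 0.00854). Nr4a3 had 668, 694, 1501, 1742 and 1399 in HT, against 477, 563, 575, 605 and 633 in WT, at 0.97 ± 0.20 (limma, adjusted p = 0.00566), a call that ended without HT replicate 4. In both, HT replicates 1 and 2 were the lowest of the HT libraries and still above every WT library. Nr4a2, at 0.67, did not pass. Klf10, a Krüppel-like repressor, had 1055, 883, 1527, 1063 and 1349 in HT, against 458, 612, 562, 744 and 751 in WT, at 0.91 ± 0.20 (limma, adjusted p = 0.00942), and lost its call without HT replicate 3. Members that did not pass included Atf3 at 1.84, Ccn1 at 0.99, Btg2 at 0.99, Sik1 at 0.89, Ier2 at 0.85, Dusp1 at 0.80, Maff at -0.05 and Zfp36 at -0.22.

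**Figure D2:**
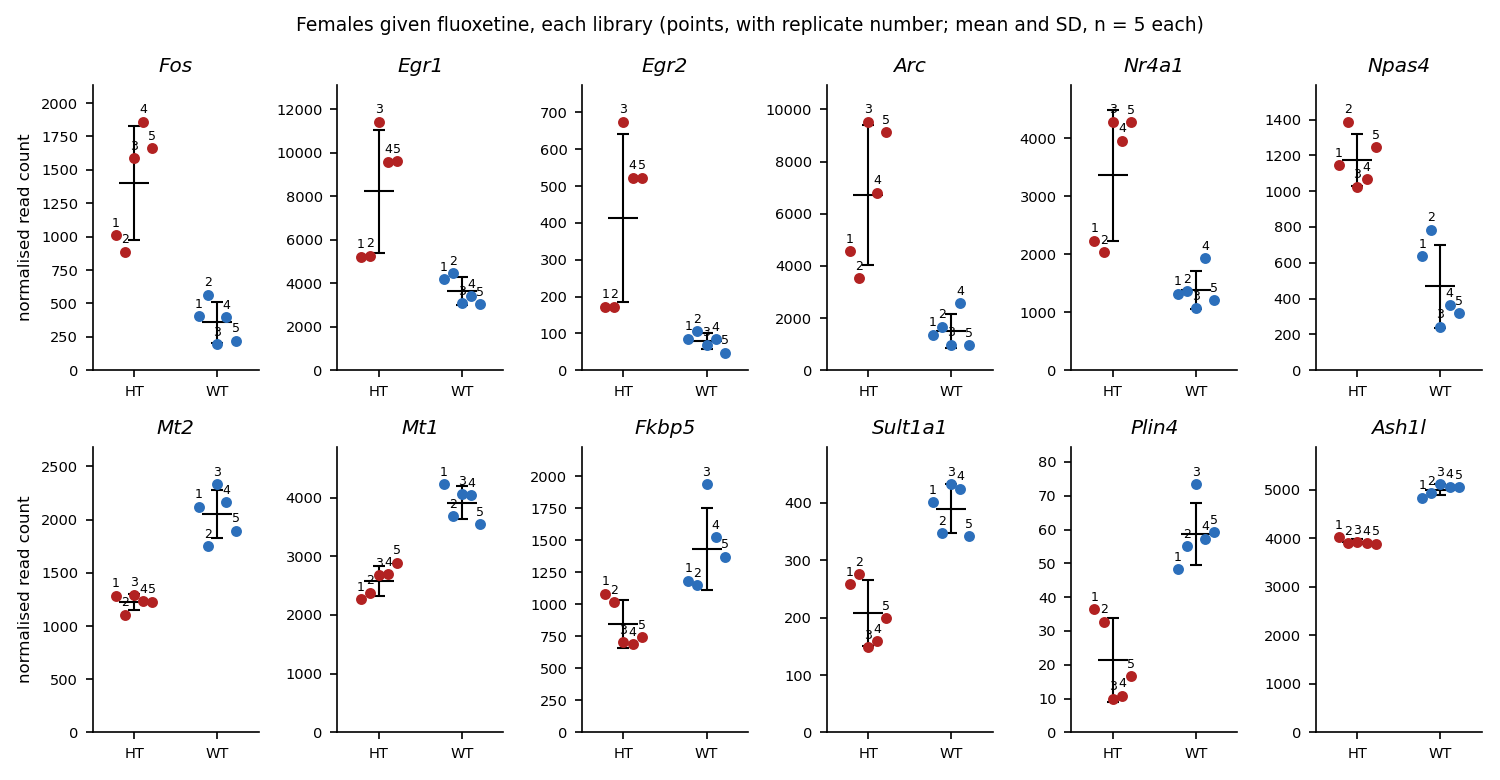
Normalised counts of 12 genes in each of the 10 libraries, HT left of WT, with the replicate number beside each point and the mean and SD drawn. Fos, Egr1, Egr2, Arc, Nr4a1 and Npas4 lie higher in HT without overlap, and Mt1, Mt2, Fkbp5, Sult1a1, Plin4 and Ash1l lie lower in HT without overlap.

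The level of the immediate early genes also varied within each genotype. The mean log2 deviation of the 36 members from their mean over the 10 libraries was 0.09, -0.01, 0.64, 0.54 and 0.73 in HT replicates 1 to 5, against -0.48, -0.26, -0.48, -0.22 and -0.54 in WT replicates 1 to 5. HT replicates 3, 4 and 5 stood apart from HT replicates 1 and 2, and all 5 exceeded every WT library. Leaving out single libraries moved the number of members called between 7, without HT replicate 4, and 18, without HT replicate 2, and the median of the list between 0.65 and 0.86. In the fit of the 10 libraries alone 6 members passed. Of the members called in the fit of all 59 libraries, only Klf10 and Junb were among them. Fos, Fosb, Egr1, Egr2, Arc, Npas4, Nr4a1 and Nr4a3 lost the call there. The rest of the 6 had not passed in the fit of all 59 libraries.

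Promoters of 4 of these genes are shown because the genes moved together and CRE half-sites, parts of the textbook site of CREB, can be read in them. The windows run from 250 bases before to 50 after a RefSeq transcript start on GRCm38.p6, which gives 300 bases each. Capitals mark the CRE half-site TGACG on either strand, read as CGTCA on the other strand, and in Egr2 also the CArG box, the motif bound by SRF. They are Fos, chr12:85473640-85473939, plus strand; Egr2, chr10:67537619-67537918, plus strand, 1 of 5 windows of that gene; Npas4, chr19:4989922-4990221, minus strand; and Nr4a1, chr15:101266596-101266895, plus strand.
Fos: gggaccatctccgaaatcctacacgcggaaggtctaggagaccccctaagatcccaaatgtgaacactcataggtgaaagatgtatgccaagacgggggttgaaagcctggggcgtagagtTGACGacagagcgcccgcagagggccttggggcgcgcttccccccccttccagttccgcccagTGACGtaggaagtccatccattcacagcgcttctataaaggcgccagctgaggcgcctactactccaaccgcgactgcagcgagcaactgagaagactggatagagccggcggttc
Egr2: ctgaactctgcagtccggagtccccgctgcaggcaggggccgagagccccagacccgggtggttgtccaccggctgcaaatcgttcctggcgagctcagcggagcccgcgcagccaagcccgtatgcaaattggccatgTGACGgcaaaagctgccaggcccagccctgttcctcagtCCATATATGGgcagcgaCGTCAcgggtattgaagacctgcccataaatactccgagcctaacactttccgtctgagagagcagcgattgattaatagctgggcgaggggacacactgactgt
Npas4: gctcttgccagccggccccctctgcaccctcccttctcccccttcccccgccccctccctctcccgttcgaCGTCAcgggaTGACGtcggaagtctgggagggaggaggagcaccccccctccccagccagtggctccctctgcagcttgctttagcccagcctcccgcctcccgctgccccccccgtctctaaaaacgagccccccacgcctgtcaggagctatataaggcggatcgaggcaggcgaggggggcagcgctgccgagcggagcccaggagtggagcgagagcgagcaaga
Nr4a1: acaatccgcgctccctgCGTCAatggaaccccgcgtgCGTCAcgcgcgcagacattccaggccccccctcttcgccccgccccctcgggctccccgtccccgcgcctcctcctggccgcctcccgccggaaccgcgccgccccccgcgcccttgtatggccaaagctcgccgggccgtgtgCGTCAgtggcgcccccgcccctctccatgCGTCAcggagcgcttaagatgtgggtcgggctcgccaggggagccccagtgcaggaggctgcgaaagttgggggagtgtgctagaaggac
Fos held 2 half-sites, the Egr2 window shown held 2 and a CArG box, Npas4 held 2 and Nr4a1 held 4. Among the other Egr2 windows, that at chr10:67535249-67535548 held neither motif and that at chr10:67537316-67537615 a CArG box alone. The rest overlap the one shown and held the same sites. In the windows of the immediate early genes, 40 windows of 29 genes matched to RefSeq, TGACG was present in 27 (67.5%), against 20.8% of all 32851 promoter windows. The CArG box was present in 5 (12.5%), against 1.63% of all windows. Several windows can belong to 1 gene and overlap, so the windows are not independent. The full CRE, TGACGTCA, was in none of the 4 windows shown, and the CArG box only in that of Egr2. In the list the full CRE was present in 4 of 40 windows (10%), against 1.79% of all windows. A match is only these letters in this window.

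Genes that limit ERK signalling, several of them induced by the same kinases, mostly had values above 0. Of 19 members, 2 passed as higher (against 1.37% of all genes), 10 reached an unadjusted p under 0.05 (against 15.6%), 18 were above 0 and the median log2 fold change was 0.22. Dusp6, a phosphatase that inactivates ERK, had 1814, 2124, 2618, 2245 and 2180 in HT, against 1499, 1357, 1235, 1589 and 1471 in WT, at 0.61 ± 0.14 (limma, adjusted p = 0.00968), and the groups did not overlap. Spry4, a Sprouty inhibitor of receptor tyrosine kinase signalling, was at 0.55 (limma, adjusted p = 0.0452), with HT replicate 2 inside the WT range. The call of Dusp6 ended without HT replicate 3 or WT replicate 3, and that of Spry4 without any 1 of HT replicates 3, 4 and 5 or WT replicates 1, 2, 3 and 5 and after quantile normalisation.

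Of 28 activity-regulated effectors, slower genes of neuronal activity, 1 passed as higher by limma (against 1.37% of all genes) and 15 were above 0, with a median of 0.07. DESeq2 called 3 higher, and 10 of the 28 reached an unadjusted p under 0.05 by limma, against 15.6% of all genes. No test of a difference between these and the immediate early genes was made. The 1 that passed was Gpr3, a receptor that raises cyclic AMP without a ligand, at 0.51 (limma, adjusted p = 0.049), a call that ended without any 1 of 8 libraries, HT replicates 3, 4 and 5 and each WT replicate, and with TMM scaling or quantile normalisation. Bdnf, a neurotrophin, was at 0.46 (adjusted p = 0.091), Inhba, an activin subunit, at 0.82 (adjusted p = 0.0577) and Sst, the neuropeptide somatostatin, at -0.35 (adjusted p = 0.227, limma for all 3).

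Of 21 circadian clock genes, 3 passed as higher (against 1.37% of all genes), with a median of 0.09. Per2, a clock repressor that is also induced by CREB, had 1068, 1216, 1905, 1738 and 1491 in HT, against 1025, 1053, 1010, 956 and 1004 in WT, at 0.52 ± 0.095 (limma, adjusted p = 0.00171). HT replicate 1 was just above the highest WT library and HT replicates 3 and 4 were far above it. Bhlhe40, a repressor of clock genes, was at 0.53 (adjusted p = 0.0134), and Nr1d2, which encodes REV-ERB beta, at 0.26 (adjusted p = 0.0439, limma for both). The call of Bhlhe40 ended without HT replicate 3, HT replicate 4 or WT replicate 3, and that of Nr1d2 without any 1 of HT replicates 2, 3 and 4 or WT replicates 1 to 4. The hour of dissection of each mouse is not given in the sources used here.

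Genes induced by glucocorticoids were prominent among the lower genes. Of 31 members tested, 10 passed as lower in HT (32.3%, against 0.582% of all genes) and none as higher, by limma and edgeR, while DESeq2 called 13 lower and none higher. Their median log2 fold change was -0.37, 24 of 31 were below 0 and 18 reached an unadjusted p under 0.05. In 14 members the HT libraries all lay below the WT libraries, which held for 1.83% of all genes tested, and in 1 member they all lay above. The summed level of the list was 82018 to 85253 in HT and 93077 to 107290 in WT.

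The metallothioneins, small proteins that bind zinc and copper and are induced by both metals and glucocorticoids, lay side by side on chromosome 8. Mt2 (94172664 to 94173568, plus strand) had 1284, 1106, 1295, 1235 and 1229 in HT, against 2120, 1753, 2334, 2163 and 1896 in WT. Mt1 (94179082 to 94180327, plus strand) had 2268, 2379, 2673, 2692 and 2891 in HT, against 4231, 3686, 4069, 4044 and 3548 in WT. For both genes the highest HT library was well below the lowest WT library, and HT replicates 1 and 2 were as low as the others. Mt2 averaged 1230 ± 75.1 in HT and 2053 ± 229 in WT, a log2 fold change of -0.73 ± 0.13 (limma, adjusted p = 0.000701). Mt1 averaged 2581 ± 253 in HT and 3915 ± 286 in WT, at -0.60 ± 0.11 (limma, adjusted p = 0.00105). Both kept their calls without any single library and in the fit of the 10 libraries alone. Of 17 metallothioneins and zinc transporters these 2 were the only ones called by limma (against 0.582% of all genes called lower), and the median of the list was -0.02.

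The promoters of both genes are shown because the pair changed together and the metal response element, the site of the zinc sensor MTF1, recurs in them. Capitals mark its core, TGCACNC or TGCGCNC on either strand. The windows are those of RefSeq on GRCm38.p6, Mt2 at chr8:94172368-94172667 and Mt1 at chr8:94178839-94179138, both on the plus strand.
Mt2: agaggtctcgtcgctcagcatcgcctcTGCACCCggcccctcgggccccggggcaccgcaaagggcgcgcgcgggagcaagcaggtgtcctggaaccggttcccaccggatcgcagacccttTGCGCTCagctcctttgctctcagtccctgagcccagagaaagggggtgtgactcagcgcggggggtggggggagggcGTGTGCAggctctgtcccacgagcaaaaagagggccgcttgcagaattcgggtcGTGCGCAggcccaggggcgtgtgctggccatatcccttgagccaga
Mt1: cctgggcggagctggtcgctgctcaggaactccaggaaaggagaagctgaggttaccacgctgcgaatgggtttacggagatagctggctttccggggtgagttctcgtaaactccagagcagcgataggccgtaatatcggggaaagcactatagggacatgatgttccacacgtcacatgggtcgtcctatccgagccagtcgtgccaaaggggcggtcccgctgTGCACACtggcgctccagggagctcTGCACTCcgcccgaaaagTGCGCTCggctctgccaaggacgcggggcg
Mt2 held 4 cores and Mt1 held 3. A core was present in 25.7% of all 32851 promoter windows and in 12 of 39 windows (30.8%) of the 26 glucocorticoid-responsive genes matched. It was present in 18 of 40 windows (45%) of the immediate early genes, which were higher in HT, so it does not mark the lower genes. The CRE half-site TGACG was in 11 of the 39 glucocorticoid windows (28.2%), against 20.8% of all windows. The Mt1 window held 1, which is not capitalised above. The glucocorticoid half-site AGAACA was present in 7 of the 39 glucocorticoid windows (17.9%), against 19% of all windows.

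The other glucocorticoid-responsive genes that fell included a regulator of the receptor itself. Fkbp5, a co-chaperone that lowers the affinity of the glucocorticoid receptor for its hormone, had 1082, 1020, 706, 691 and 743 in HT, against 1185, 1150, 1940, 1527 and 1374 in WT. HT replicates 1 and 2 were close to the lowest WT libraries and HT replicates 3 to 5 were far below them. The log2 fold change was -0.76 ± 0.19 (limma, adjusted p = 0.0201). Zbtb16, which encodes the zinc finger factor PLZF, was lower at -0.60 ± 0.16 (adjusted p = 0.0279), with 749 to 910 in HT and 1093 to 1437 in WT. Tsc22d3, which encodes the anti-inflammatory protein GILZ, was lower at -0.38 ± 0.10 (limma for both, adjusted p = 0.0286). The call of Fkbp5 ended without any 1 of HT replicates 3, 4 and 5 or WT replicate 3. That of Zbtb16 ended without any 1 of these or WT replicate 5, and that of Tsc22d3 without any 1 of HT replicates 3, 4 and 5 or WT replicates 1, 3, 4 and 5.

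Other members that fell are concerned with lipids, metabolism and signalling. Plin4, a protein of the perilipin family that coats lipid droplets, had 36.5, 32.7, 9.93, 10.9 and 16.6 in HT, against 48.2, 55.2, 73.5, 57.3 and 59.3 in WT. HT replicates 3 to 5 were lowest and the groups did not overlap, with a log2 fold change of -1.59 ± 0.33 (limma, adjusted p = 0.00437). Sult1a1, a sulfotransferase of phenols, had 258, 275, 149, 159 and 199 in HT, against 401, 348, 433, 425 and 342 in WT, at -0.94 ± 0.18 (limma, adjusted p = 0.00285). Map3k6, a stress-responsive kinase, was lower at -1.02 ± 0.24 (adjusted p = 0.0147), Pla2g3, a secreted phospholipase, at -0.81 ± 0.18 (adjusted p = 0.0103) and Arrdc2, an arrestin-domain protein, at -0.61 ± 0.15 (adjusted p = 0.0182, limma for all 3). The calls of Map3k6 and Arrdc2 ended without HT replicate 3, HT replicate 4 or WT replicate 3, and that of Pla2g3 without HT replicate 4 or WT replicate 3. Members that did not pass included Hif3a at -0.74, Slc2a1 at -0.49, Sgk1 at -0.39, Fam107a at -0.37, Klf9 at -0.21 and 2 genes that are also immediate early genes, Per1 at 0.30 and Dusp1 at 0.80.

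The list moved in the opposite sense to the immediate early genes within HT as well. Its mean log2 deviation was -0.03, -0.04, -0.33, -0.33 and -0.15 in HT replicates 1 to 5, against 0.15, 0.07, 0.36, 0.19 and 0.10 in WT replicates 1 to 5. HT replicates 1 and 2 were nearest to WT in both lists, and WT replicate 3 was the highest library in this one. The number of members called was 4 without HT replicate 4, 4 without WT replicate 3 and 5 without HT replicate 3, and at most 13. The fit of the 10 libraries alone called 9, though Fkbp5, Pla2g3 and Arrdc2 lost the call there.

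Beyond these groups, the gene with the smallest p-value was Spty2d1, a histone chaperone (chromosome 7, 46990396 to 47008411, minus strand). It had 552, 498, 607, 612 and 584 in HT, against 400, 405, 388, 380 and 424 in WT. The 2 ranges were narrow and well apart, at 571 ± 46.8 in HT and 399 ± 17.0 in WT, and the log2 fold change was 0.51 ± 0.077 (limma, adjusted p = 0.000148). The call held without any single library and in the fit of the 10 libraries alone.

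Other higher genes with small p-values had varied roles. Tm6sf2, a membrane protein known from lipoprotein secretion in liver, was scarce here, at 32.4, 27.3, 60.6, 52.6 and 62.1 in HT, against 19.5, 15.6, 16.4, 14.3 and 11.9 in WT (log2 fold change 1.48 ± 0.25; limma, adjusted p = 0.000536). Dnase1l2, a DNase I relative, was at 102 to 205 in HT and 59.5 to 89.2 in WT (1.04 ± 0.18; limma, adjusted p = 0.000536). Slc5a3, the sodium-coupled transporter of myo-inositol, was at 654 to 1010 in HT and 501 to 605 in WT (0.62 ± 0.11; limma, adjusted p = 0.000806). None of the 3 overlapped between genotypes. The others by the same rule were Mfap3 at 0.42, the IKK-epsilon suppressor Sike1 at 0.30 and the RNA-binding protein Dnd1 at 1.19, none of them overlapping either. Tnfrsf25, the death receptor DR3, was at 1.21 with overlap, since HT replicates 1 and 2, at 77 and 97.3, lay below WT replicate 1, at 107.

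Among genes for RNA processing, Tra2a, a splicing factor, was higher at a log2 fold change of 0.49 (adjusted p = 0.00256), with 2041 to 2835 in HT and 1540 to 2012 in WT. Ints8, a subunit of the Integrator complex, was at 0.43 (adjusted p = 0.00307), with 643 to 932 in HT and 532 to 573 in WT. Papola, the nuclear poly(A) polymerase, was at 0.36 (adjusted p = 0.00372, limma for all 3), with 3174 to 3774 in HT and 2381 to 3153 in WT. In each of the 3 the groups did not overlap.

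Lower genes with small p-values outside the lists were Tipin, a replication fork protein, at a log2 fold change of -0.51, with 170 to 285 in HT and 308 to 344 in WT. Pnpla2, the triglyceride lipase of lipid droplets, was at -0.59, with 377 to 499 in HT and 580 to 737 in WT. Lias, which makes lipoic acid for mitochondrial enzymes, was at -0.29, with 555 to 700 in HT and 734 to 813 in WT. None of these overlapped, and their adjusted p-values by limma were 0.00209 for Tipin, 0.00256 for Pnpla2 and 0.00372 for Lias. The others by that rule were Smim3 at -0.78, the proteoglycan Sdc4 at -0.53, the transporter Abcc4 at -0.48 and Lcmt2 at -0.49.

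Among the largest decreases at a mean count of at least 50, Galnt15, of the family that starts O-glycosylation, was at -1.01, the xanthine dehydrogenase gene Xdh at -0.96 and the dopamine D5 receptor gene Drd5 at -0.86. Cited4, a partner of the coactivators CBP and p300, was at -0.84, and the vasoconstrictor endothelin 1, Edn1, at -0.78. Drd5, Xdh and Edn1 overlapped between genotypes, whereas Galnt15 and Cited4 did not. Each of these 5 calls ended without at least 1 single library. For Galnt15 it was HT replicate 4, for Cited4 WT replicate 3, and for Drd5 any 1 of HT replicates 3, 4 and 5 or WT replicate 3. For Xdh it was any 1 of HT replicates 3 and 4 or WT replicates 1 and 3, and for Edn1 any 1 of those 4 or HT replicate 5.

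Among enzymes that write and erase methyl marks on histone H3 lysines 36 and 4, 5 of 30 passed as higher (against 1.37% of all genes) and Ash1l alone as lower (against 0.582%), with a median of 0.07. The higher genes were the methyltransferase genes Kmt2a, at a log2 fold change of 0.41 (adjusted p = 0.0074), and Setd1b, at 0.45 (adjusted p = 0.0323). The others were the demethylase genes Kdm2a, at 0.25 (adjusted p = 0.0134), Kdm2b, at 0.26 (adjusted p = 0.0208), and Kdm5c, at 0.27 (adjusted p = 0.0456, limma for all 5). Kmt2a had 4384, 4398, 5246, 6041 and 5360 in HT, against 3722, 4542, 3769, 3408 and 3616 in WT, so WT replicate 2 lay inside the HT range. Its call ended without HT replicate 4, that of Kdm2a without any 1 of HT replicates 3 and 4 or WT replicate 1, and those of Setd1b, Kdm2b and Kdm5c without any 1 of 7 or 8 libraries, which were HT replicates 3, 4 and 5 and WT replicates 1, 3, 4 and 5, and for Kdm5c also WT replicate 2. The call of Kdm5c also ended with the replicate number as a block. Kmt2d, at 0.30, Kmt2c, at 0.24, and the other H3K36 enzymes Nsd1, at 0.08, and Setd2, at 0.03, did not pass.

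Of 33 polycomb genes, 4 passed as higher (against 1.37% of all genes) and none as lower by limma, 23 were above 0 and the median was 0.13. edgeR and DESeq2 called 5 higher and none lower. Rybp, a subunit of variant PRC1, had 1712, 1697, 2149, 2268 and 1964 in HT, against 1423, 1520, 1448, 1599 and 1493 in WT, without overlap (log2 fold change 0.38; limma, adjusted p = 0.00372). Pcgf6, the subunit that defines another variant PRC1, was at 0.44 (adjusted p = 0.00941), and Phc3, a subunit of canonical PRC1, at 0.27 (adjusted p = 0.0314, limma for both), both without overlap, with Kdm2b as the other. The call of Pcgf6 ended without HT replicate 4 or WT replicate 3, and that of Phc3 without any 1 of HT replicates 3 and 4 or WT replicates 1, 3 and 4. Banp, a nuclear matrix protein that binds unmethylated CpG motifs, was higher at 0.37 (limma, adjusted p = 0.00512), with overlap and a call that ended without HT replicate 3. Banp and Kdm2b belong to a set of 6 regulators that an earlier look at these same libraries had picked for genotype, so they are not independent evidence of a direction. Of the 6, 3 were above 0 and 3 below, with a median of -0.04. In the 3 below 0 all HT libraries lay below all WT libraries, which held for 1.83% of all genes tested. These 2 passed as higher by each of the 3 tools, while limma called none lower, edgeR 1 and DESeq2 2.

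Of 55 autism risk genes tested, 2 passed, a share near the 1.95% of all genes. Both were lower, the mutated gene Ash1l itself and Met, the receptor for hepatocyte growth factor, while the median was 0.04. Met had 286, 304, 253, 407 and 267 in HT, against 522, 384, 406, 472 and 477 in WT, at -0.59 ± 0.14 (limma, adjusted p = 0.0181). HT replicate 4 lay above WT replicates 2 and 3, and the call ended without any 1 of HT replicates 3 and 5 or WT replicate 1.

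In the lists of stress responses, 1 or 2 genes each passed, all of them higher. These were 7.41% of the unfolded protein response, 4.55% of the heat shock and 7.69% of the hypoxia list, against 1.37% of all genes. Members at an unadjusted p under 0.05 by limma numbered 8, 4 and 4 in that order, where 15.6% of all genes reached it. Of 27 unfolded protein response genes 2 were higher, the transcription factor gene Xbp1 at 0.33 (adjusted p = 0.0206) and the disulfide isomerase gene Pdia4 at 0.45 (adjusted p = 0.0368), with a median of 0.12. Of 22 cytosolic heat shock genes 1 was higher, the chaperone gene Dnajb5 at 0.38 (adjusted p = 0.00854), with a median of 0.12. Of 26 hypoxia-responsive genes 2 were higher, Pfkfb3, which drives glycolysis, at 0.38 (adjusted p = 0.00955) and the collagen prolyl hydroxylase gene P4ha1 at 0.35 (adjusted p = 0.00992, limma for all 5), with a median of 0.01. All 5 overlapped between genotypes. Each lost its call without HT replicate 3 and without HT replicate 4, Xbp1 also without HT replicate 5, WT replicate 2 or WT replicate 5, and Pdia4 also without any 1 of HT replicate 5 or WT replicates 2, 3 and 5.

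Single members of other pathways passed, 1 each of 22 Notch, 39 Wnt, 27 sterol synthesis, 17 insulin-like growth factor, 19 thyroid hormone response and 22 glutamate receptor genes. Over all genes tested 1.95% were called, so nothing about these lists is read from 1 member each. They were the Notch ligand gene Jag1 at 0.53 and the Wnt inhibitor gene Nkd1 at 0.43, both higher. Lower were the squalene synthase gene Fdft1 at -0.31, the secreted protease gene Htra1 at -0.38, the lipogenic regulator gene Thrsp at -0.58 and the glutamate receptor delta 1 gene Grid1 at -0.29. Their adjusted p-values by limma were 0.0257, 0.0145, 0.0345, 0.0148, 0.0162 and 0.0389 in that order. Each call ended without HT replicate 3 and without HT replicate 4. Each also ended without HT replicate 5 except that of Htra1, and without WT replicate 3 except that of Jag1. Further libraries that ended a call were WT replicate 1 for Jag1 and Thrsp, WT replicate 2 for Grid1, WT replicate 4 for Jag1 and Grid1, and WT replicate 5 for Jag1, Fdft1 and Grid1.

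Serotonin genes, the target system of the drug, were not called. Of 20 receptors and genes of serotonin handling tested, none passed by limma, edgeR or DESeq2, 3 had an unadjusted p under 0.05 by limma, and the median was -0.06. The smallest p belonged to the receptor gene Htr7, which had 180, 153, 145, 176 and 162 in HT, against 214, 164, 212, 198 and 230 in WT (-0.31 ± 0.11; limma, adjusted p = 0.106). The WT replicate 2 library was the only WT library inside the HT range. Htr1a was at -0.33, Htr2a at -0.25 and Htr2c at 0.21.

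Nuclear-encoded subunits of the respiratory chain had log2 fold changes slightly below 0. Of 75 tested, 1 was above 0, the median was -0.12 and their sum was 228160 to 240700 in HT and 248740 to 270860 in WT. No single subunit passed by limma or edgeR, DESeq2 called 1 lower, and 12 reached an unadjusted p under 0.05 by limma, a share near the 15.6% of all genes. The smallest p was that of the complex I subunit gene Ndufa9, at -0.16 ± 0.049 (limma, adjusted p = 0.0688). With the GC and length trends taken out the median was -0.06. Of 79 cytosolic ribosomal protein genes none passed by any of the 3 tools, with 1 at an unadjusted p under 0.05 by limma, and the median was -0.06. It was 0.01 after removal of those trends, so this direction flipped. Of 13 mitochondrially encoded genes none passed by any of the 3 tools, none had an unadjusted p under 0.05 and the median was -0.09.

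Markers of the main cell types of cortex were present in all 10 libraries, and no list of cell type markers had a member called by limma. The median log2 fold change was -0.09 for 18 astrocyte markers, -0.05 for 20 oligodendrocyte markers, -0.005 for 18 microglia markers and 0.003 for 19 endothelial markers. It was 0.007 for 15 upper layer neuron markers, -0.09 for 18 deep layer neuron markers and -0.04 for 28 interneuron markers. By limma, members at an unadjusted p under 0.05 numbered 6, 2, 0, 10, 2, 3 and 2 in that order, where 15.6% of all genes did. The endothelial list, at 10 of 19, and the astrocyte list, at 6 of 18, lay above that share. edgeR called 1 oligodendrocyte marker, and DESeq2 called 1 each among the astrocyte, oligodendrocyte, endothelial and upper layer markers. The smallest p-values were those of Pdgfra, of oligodendrocyte precursors, at -0.28 (adjusted p = 0.0536), the astrocyte connexin gene Gjb6 at -0.31 (adjusted p = 0.0769) and the tight junction gene Cldn5 at 0.37 (adjusted p = 0.0905, limma for all 3).

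Markers of neighbouring regions varied more between libraries. All 18 olfactory bulb and neuroblast markers were above 0, with a median of 0.79, but none passed by any of the 3 tools and none had an unadjusted p under 0.05, and both genotypes were spread. Eomes, a factor of olfactory projection neurons, had 469, 158, 88.4, 1043 and 692 in HT, against 1.03, 782, 0, 417 and 3.95 in WT. The summed level of the 18 markers was 20243 to 47083 in HT and 12344 to 45905 in WT, and no marker was at 0 in all 10 libraries. Their mean log2 deviation was 0.66, -0.24, -0.33, 1.27 and 1.33 in HT replicates 1 to 5, against -1.85, 1.29, -1.21, 0.41 and -1.32 in WT replicates 1 to 5. HT replicate 3 was low in these markers and high in the immediate early genes, and HT replicates 4 and 5 were high in both. HT replicate 1, at 0.66 here, was with HT replicate 2 the lowest of HT in the immediate early genes. Within WT, replicates 2 and 4 were the highest in both lists and replicates 1, 3 and 5 the lowest in both. Every WT library lay below every HT library in the immediate early genes. Whether the 2 lists are linked was not tested.

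The 21 striatal markers had a median of -0.18 with none called by any of the 3 tools and none at an unadjusted p under 0.05. Their sum was 14698 to 20501 in HT and 15393 to 32031 in WT, and the high value was that of WT replicate 3. The mean log2 deviation of this list was 0.62 in HT replicate 1 and 1.50 in WT replicate 3, and between -0.37 and -0.11 in the other 8 libraries. No striatal marker was at 0 in all 10 libraries. WT replicate 3 was also 1 of the libraries on which the calls above depended. Without it, 8 immediate early genes were called higher and 4 glucocorticoid-responsive genes lower, against 10 each with all libraries. Over all fits with any 1 of the 10 libraries left out, the immediate early median ranged from 0.65 to 0.86. That of the glucocorticoid list ranged from -0.41 to -0.29. These ranges include the fit without WT replicate 3 and are not specific to it. The part of these markers in the results was not tested further.

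**Figure D3:**
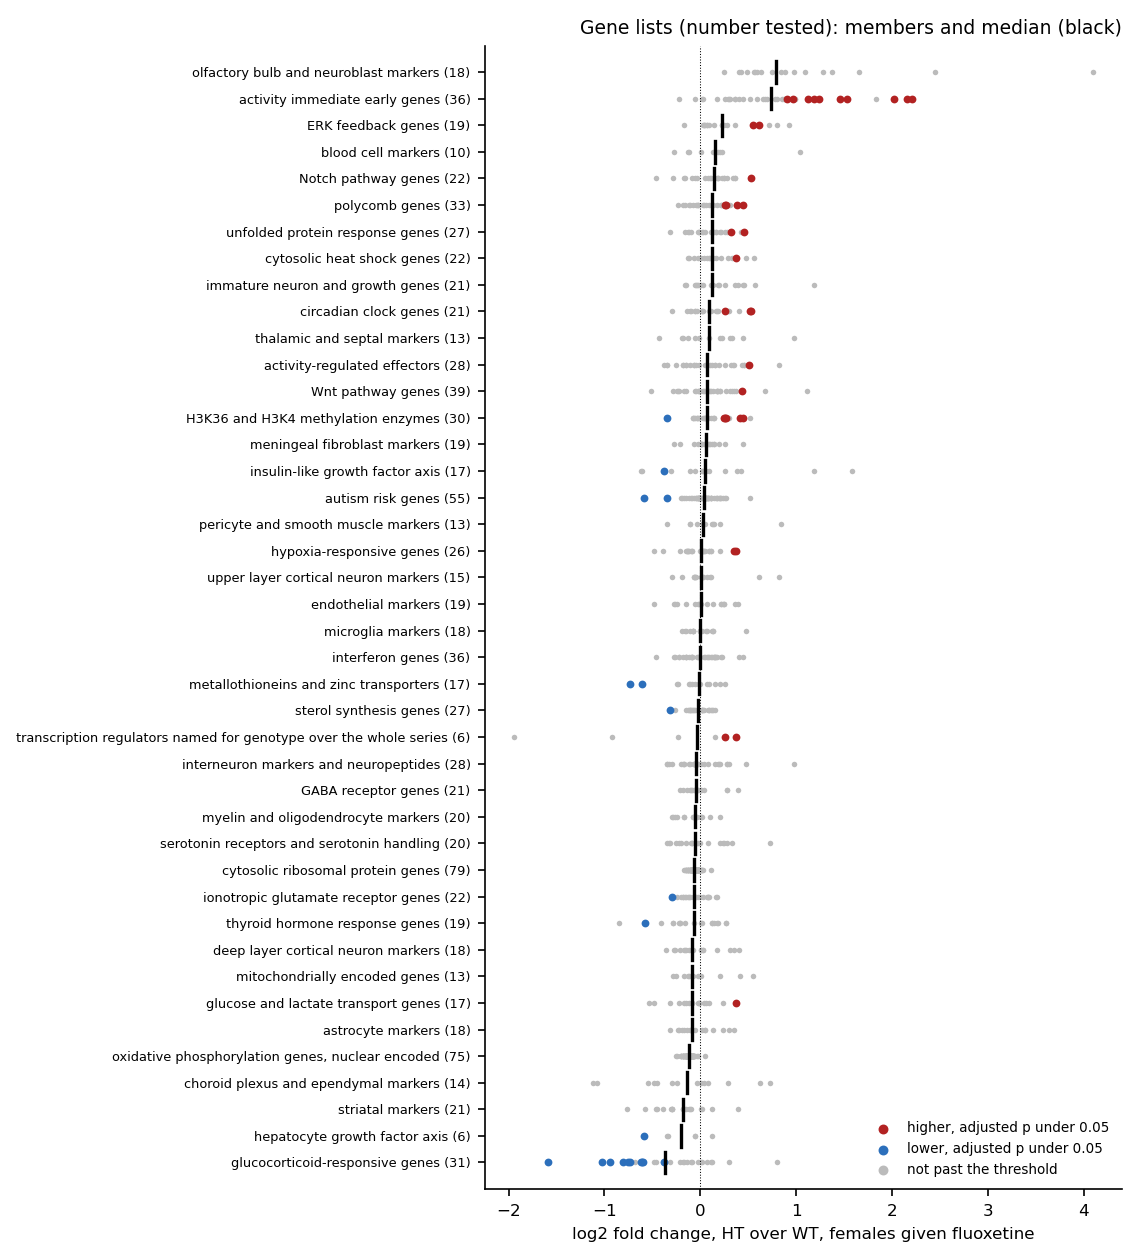
Log2 fold change, HT over WT fluoxetine females, of the members of 42 gene lists, with the median of each list marked. The immediate early list has a median of 0.74 and the glucocorticoid list one of -0.37, while most other medians lie close to the -0.0016 of all genes tested; the olfactory list is wide, at a median of 0.79.

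The same genotype contrast was then set beside that in the other 5 combinations of drug and sex, which use other libraries. Lithium females had 9 libraries, with fewer in HT than in WT, and each other combination had 10. Among the HT against WT contrasts, 1 gene passed in lithium females (0.00559%), 69 (0.386%) in fluoxetine males, 1 in lithium males and 1 in vehicle males (0.00559% each), and 1109 (6.2%) in vehicle females. Without the library labelled WT vehicle female replicate 3 the number in vehicle females was 20. Of the 348 genes, 251 had the same sign in vehicle females and 36 were called there in the same direction, and without that library 247 and 1. In fluoxetine males 115 had the same sign, in lithium females 149, in vehicle males 140 and in lithium males 190, with 1 called in the same direction in each. The median log2 fold change of the immediate early genes was 0.74 in fluoxetine females, 0.21 in lithium females, -0.27 in vehicle females (-0.25 without that library), -0.07 in fluoxetine males, 0.04 in lithium males and -0.02 in vehicle males. That of the glucocorticoid-responsive genes was -0.37 in fluoxetine females and between -0.10 and -0.02 in the other 5, or 0.02 in vehicle females without that library.

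**Figure D4:**
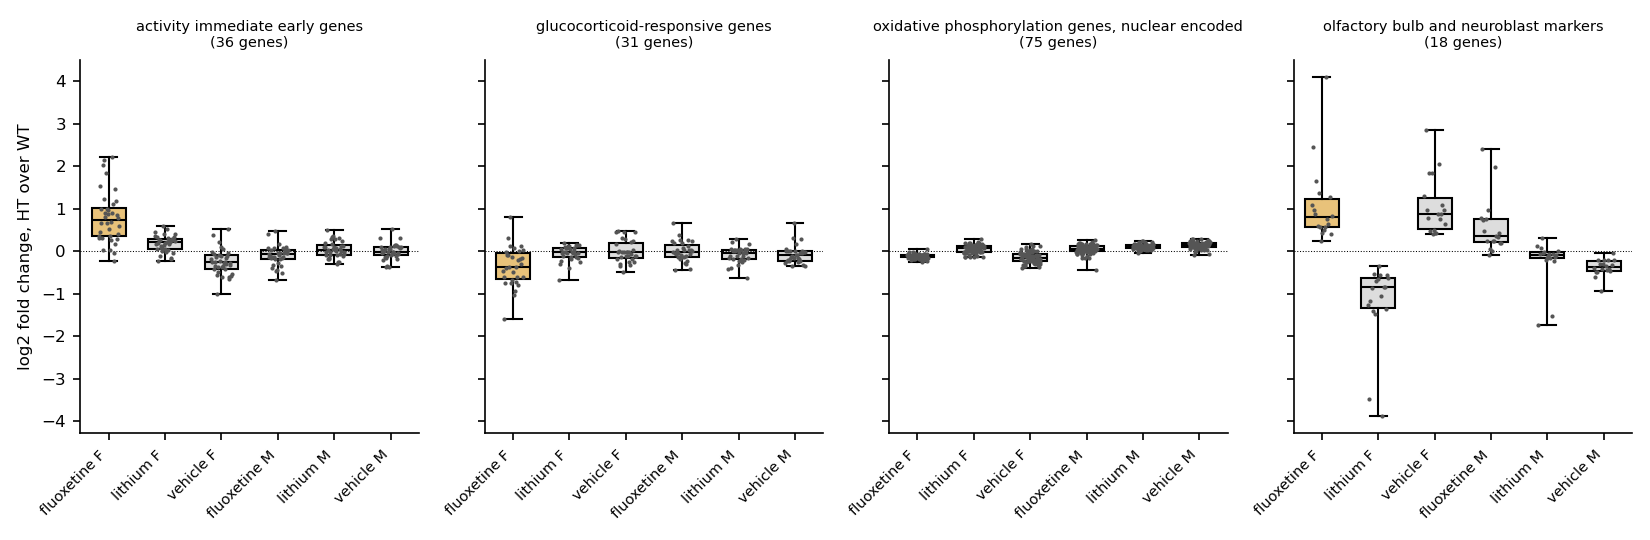
Log2 fold change, HT over WT, of the members of 4 gene lists in each combination of drug and sex, with fluoxetine females first and shaded. Boxes span the quartiles and whiskers run from the lowest to the highest member; the immediate early genes have a median of 0.74 in fluoxetine females and of -0.27 in vehicle females.

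The difference between fluoxetine females and the mean of the other 5 strata was tested directly. It passed for 182 genes (1.02%), 142 in the positive (0.794%) and 40 in the negative direction (0.224%), and 164 of the 348 were among them. The smallest p was that of Spty2d1, whose difference was 0.57 ± 0.085 (limma, adjusted p = 0.000191). Fos differed by 2.08, Egr2 by 2.37, Egr1 by 1.17, Tm6sf2 by 1.58 and Tra2a by 0.58 in the positive direction. In the negative direction Plin4 differed by -1.66, Fkbp5 by -0.96, Klhdc9 by -0.79, Lcmt2 by -0.56, Tipin by -0.50 and Lias by -0.29. Of the immediate early genes 10 differed in the positive direction, and of the glucocorticoid-responsive genes 7 in the negative direction, among them Mt2 at -0.52 (limma, adjusted p = 0.048). Ash1l did not, at -0.04 (limma, adjusted p = 0.81). The 182 became 29 without HT replicate 4, 34 without WT replicate 3, 35 without HT replicate 3, 37 without HT replicate 5, 79 without WT replicate 1 and 113 without WT replicate 4 of the fluoxetine females. They became 302 without HT replicate 1 and 348 without HT replicate 2 of the same stratum, and 317 without the library labelled WT vehicle female replicate 3.

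Against vehicle females, 15 genes differed (0.0839%), 13 positively (0.0727%) and 2 negatively (0.0112%), and 14 of them were among the 348. Arc differed by 3.16 ± 0.60, Egr2 by 2.63 ± 0.48, Fos by 2.27 ± 0.42, Tm6sf2 by 2.03 ± 0.35, Tnfrsf25 by 1.72 ± 0.33, Egr1 by 1.28 ± 0.25, Zbtb16 by -1.06 ± 0.22 and Fkbp5 by -1.22 ± 0.26. Nr4a1, at 1.80, was another, so 5 immediate early genes and 2 glucocorticoid-responsive genes were among the 15. Without the library labelled WT vehicle female replicate 3, 12 genes differed, 8 of them among the 15. The differences then were 3.18 for Arc, 2.64 for Egr2, 2.25 for Fos, 1.93 for Tm6sf2, 1.71 for Tnfrsf25, 1.25 for Egr1 and 1.84 for Nr4a1, all still past the threshold. Zbtb16, at -0.99 (adjusted p = 0.0636), and Fkbp5, at -1.24 (adjusted p = 0.06, limma for both), no longer passed. In that fit 6 immediate early genes and no glucocorticoid-responsive gene differed. The 15 became 3 without HT fluoxetine replicate 3, 4 without HT vehicle replicate 4, and 5 without HT fluoxetine replicate 4, HT fluoxetine replicate 5 or WT fluoxetine replicate 3. They became 6 without WT vehicle replicate 4, 7 without WT fluoxetine replicate 5, 8 without WT fluoxetine replicate 4, WT vehicle replicate 1 or HT vehicle replicate 3, and 9 without HT vehicle replicate 2. They became 89 without HT fluoxetine replicate 1, 99 without HT vehicle replicate 5 and 101 without HT fluoxetine replicate 2.

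Against fluoxetine males, 354 genes differed (1.98%), 260 positively (1.45%) and 94 negatively (0.526%), and 140 of them were among the 348. After quantile normalisation the split was 225 and 149. Egr2 differed by 2.73, Fos by 2.40, Slc5a3 by 0.87, Spty2d1 by 0.71, the potassium channel tetramerisation domain gene Kctd7 by 0.70 and Sike1 by 0.48. In the negative direction Plin4 differed by -2.24, the actin-capping protein gene Capg by -1.06, Klhdc9 by -1.01, B4galnt4 by -0.45 and Lias by -0.38. Of the immediate early genes 7 differed positively, and of the glucocorticoid-responsive genes 4 differed negatively. The 354 became 88 without HT replicate 4, 109 without WT replicate 3, 144 without HT replicate 3, 177 without WT replicate 1 and 221 without WT replicate 2 of the females. Among the males they became 78 without HT replicate 4, 128 without HT replicate 5, 148 without WT replicate 4, 149 without WT replicate 1, 189 without WT replicate 2, 190 without HT replicate 3, 206 without WT replicate 3, 596 without WT replicate 5, 658 without HT replicate 1 and 770 without HT replicate 2.

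Against lithium females, which had 9 libraries (4 HT and 5 WT), 3 genes differed (0.0168%), all positively and all among the 348. They were Ints8 by 0.68 ± 0.12, Spty2d1 by 0.57 ± 0.11 and Papola by 0.54 ± 0.11, while 2697 genes had an unadjusted p under 0.05. No immediate early gene differed there by limma, although the median difference of the list was 0.55. The 3 became 0 without any 1 of HT replicates 4 and 5 and WT replicate 3 of the fluoxetine females, or of HT replicates 3 and 4 and WT replicates 1 and 2 of the lithium females. They became 1 without HT replicate 3 or WT replicate 1 of the fluoxetine females or HT replicate 2 of the lithium females. They became 5 without WT replicate 4 and 19 without WT replicate 3 of the lithium females, and 15 without WT replicate 2, 22 without HT replicate 2 and 55 without HT replicate 1 of the fluoxetine females.

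The levels of 6 genes in all 12 groups are given as a description. The genes were chosen because HT and WT fluoxetine females differ in them, so a mean at 1 end of the order in either of these groups was largely set by that choice. Fos averaged 1401 ± 427 in HT fluoxetine females, the highest of the 12 means, and 357 ± 151 in WT fluoxetine females, the lowest. The other 10 group means of Fos lay between 449 in HT fluoxetine males and 1116 in WT vehicle females (1106 without the library labelled replicate 3). Arc averaged 6711 in HT fluoxetine females, close to 6803 in WT vehicle females (6927 without that library), and 1504 in WT fluoxetine females, the lowest of the 12. Egr1 averaged 8226 in HT fluoxetine females, which 3 other group means exceeded, among them 8324 in WT vehicle females (8147 without that library), and 3636 in WT fluoxetine females, again the lowest.

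Mt2 averaged 1230 in HT fluoxetine females, close to 1232 in HT vehicle males, and 2053 in WT fluoxetine females, the highest of the 12. The next highest was 1822 in WT fluoxetine males. Fkbp5 averaged 849 in HT fluoxetine females, between 788 in WT vehicle males and 887 in HT vehicle females, and 1435 in WT fluoxetine females, the highest, close to 1386 in HT lithium males. Spty2d1 averaged 571 in HT fluoxetine females, close to 577 in WT vehicle males, and 399 in WT fluoxetine females, the lowest, with the other means between 464 and 577.

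**Figure D5:**
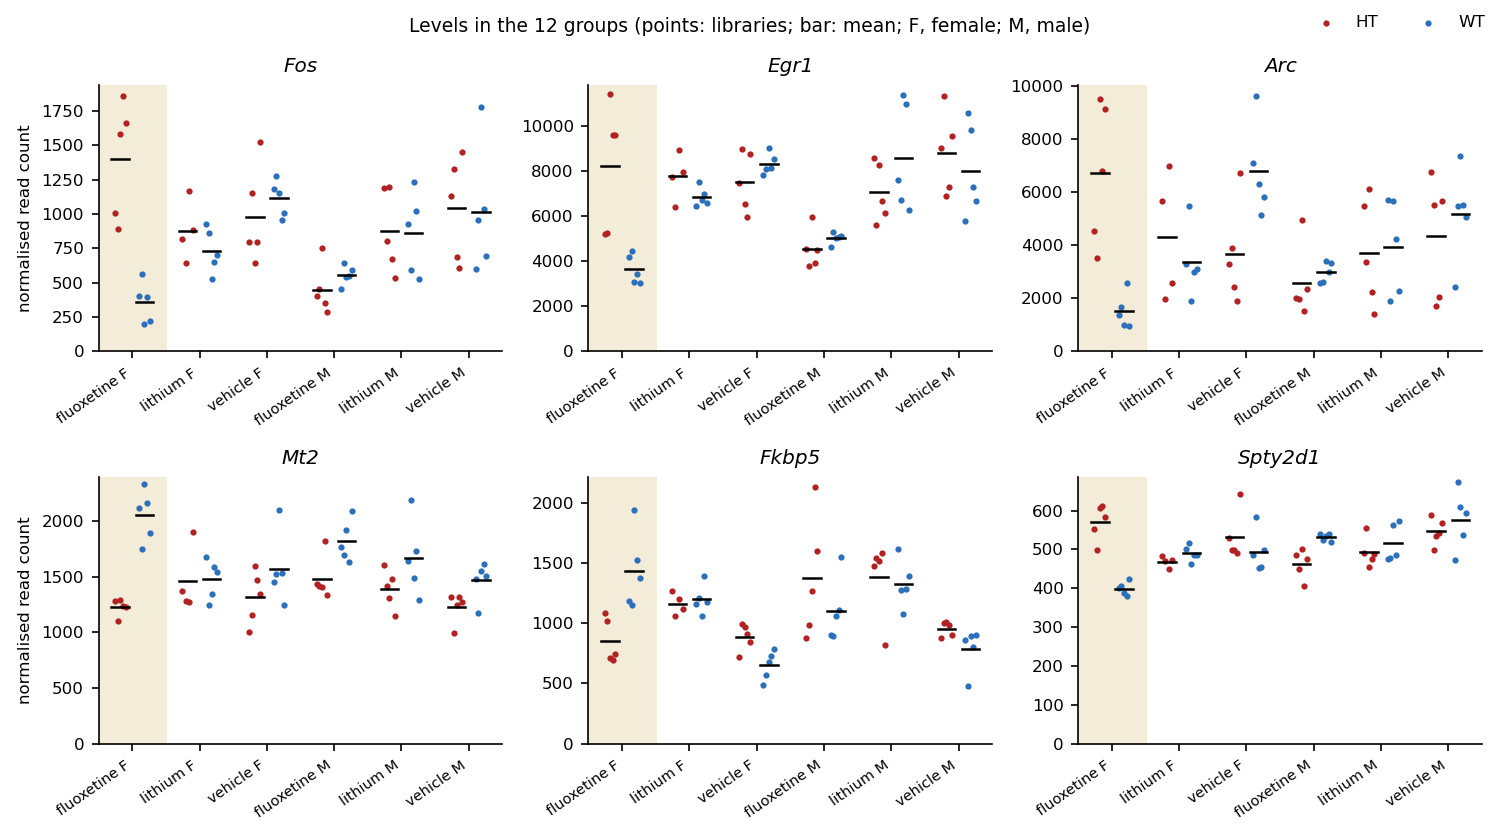
Normalised counts of Fos, Egr1, Arc, Mt2, Fkbp5 and Spty2d1 in each library of the 12 groups, with a bar at each mean and fluoxetine females shaded and first. WT fluoxetine females have the lowest mean in Fos, Egr1, Arc and Spty2d1 and the highest in Mt2 and Fkbp5.

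Fluoxetine was also set against vehicle within each genotype of the females. In HT females no gene passed by limma or edgeR, DESeq2 called 5, and 1370 genes had an unadjusted p under 0.05 by limma. In WT females 509 genes passed by limma (2.85%), 224 higher (1.25%) and 285 lower (1.59%) under fluoxetine, while edgeR called 485 and DESeq2 683. The median log2 fold change of the immediate early genes, fluoxetine over vehicle, was 0.30 in HT with none called and -0.65 in WT with 17 called lower. That of the glucocorticoid-responsive genes was -0.04 in HT with none called, and 0.25 in WT with 8 called higher and 1 lower. Without the library labelled WT vehicle female replicate 3, 392 genes passed in WT, the immediate early median was -0.67 with 13 called lower, and the glucocorticoid median was 0.30 with 9 called higher and 1 lower. These contrasts share the fluoxetine libraries with the genotype contrast, so the values are set side by side only. The test of the difference between genotypes is the one against vehicle females given above, with its 15 genes.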

How the data were processed

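RNA sequencing of prefrontal cortex was measured in 59 libraries, 10 of which are compared here. Per the labels' protocols, libraries were made with the TruSeq Stranded mRNA kit. The build GRCm38 and the tools DESeq2 1.19.11, R 3.6.0 and Salmon 0.11.2 are named in the submitters' processing notes. Not given in the sources used here are the annotation, the strand setting of the counting and the choice of genes, so reads of overlapping or antisense genes cannot be told apart. The deposited table holds 1 signal for each gene in each library, which is the read count after the authors' division by a size factor. In every library 100% of values gave whole reads within 0.01 after division by the smallest step. The table has 18088 genes, 18077 with a symbol and position in GENCODE M21, and 1 at 0 throughout.

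Genes with a normalised count of at least 10 in at least 5 libraries were tested, which kept 17875 and left out 213. Because the values were already normalised, the main test was limma 3.58.1 (trend and robust variances, R 4.3.3) on log2(normalised count + 1), in 1 fit of all 59 libraries with 1 mean per group. Fold changes on this scale understate the change of low genes. Benjamini-Hochberg adjustment ran over the 17875 genes, with a threshold of 0.05, and errors of fold changes are standard errors. Alternatives were edgeR 4.0.16 and DESeq2 1.42.0 on the recovered reads, other pseudocounts, filters and scalings, removal of GC and length trends, a replicate block, the compared groups alone, and each library left out. The comparison of calls by each count tool within lists, the block in the 10 libraries alone and the vehicle contrasts and group means without the library labelled WT vehicle female replicate 3 were added after the data were seen. On simulated data for the genotype comparison, with 50 genes per fold size and 17875 genes, limma found 15 of the genes changed 1.25-fold, 39 of those changed 1.5-fold, 47 of those changed 2-fold and 50 of those changed 4-fold, beside 6 false calls. The simulated counts were drawn independently around 1 mean per gene, with changes only in genes of a mean of at least 50. They held no genes that move together and no library apart from its group, so these numbers need not carry over to the real libraries.

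The comparison and the gene lists were chosen with earlier results of these data known, so lists are described by counts and medians without a test. Named were Ash1l, up to 12 genes per direction with the smallest p, up to 8 per direction with the largest change at a mean of at least 50, up to 6 called members per list and direction (or the 1 with the smallest p), and up to 6 per direction for each difference. Predicted and unnamed genes were left out, and 1 gene named by the rule is not reported here. Fosb, Klf10, Npas4, Junb, Arrdc2, Fkbp5, Zbtb16 and Tsc22d3, members beyond the 6, and list members that did not pass were named after their values were seen. Promoter sequences came from RefSeq on GRCm38.p6. The median level of a value is not comparable between genes, since the counts are not divided by length.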

Additional observations from a re-analysis of the deposited data

Results flagged for a closer look

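Among 278 groups of 5 values examined, 8 had a highest or lowest library far from the other 4, where chance gives about 1 in 20. HT replicate 1 had the highest Ash1l count of the HT libraries, 4021, against 3887 to 3923 in the other 4. HT replicate 1 also stood high in the striatal marker gene Ido1, an enzyme of tryptophan breakdown, at 8.109 against 1.812 to 3.497, and in the mean log2 deviation of the striatal markers, at 0.62. HT replicate 2 stood low in the mean log2 deviation of the astrocyte markers, at -0.17 against 0.0028 to 0.043 in the other HT libraries. WT replicate 3 stood high in Ido1, at 21.27 against 3.078 to 7.163, in the striatal markers, at 1.50, and in the smooth muscle gene Cnn1, at 14.5 against 7.163 to 8.893, and low in Lcmt2, at 192.4 against 213.4 to 221.3.

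The genotype difference in fluoxetine females departed from that in another stratum by a direct test (limma) for the genes given next, each value being a difference of log2 fold changes with its adjusted p. From vehicle females it departed in Tm6sf2 by 2.03 (0.00669), Egr2 by 2.63 (0.0106), Fos by 2.27 (0.0106), Tnfrsf25 by 1.72 (0.0106), Arc by 3.16 (0.0108), Egr1 by 1.28 (0.0177), Zbtb16 by -1.06 (0.0242) and Fkbp5 by -1.22 (0.0389). Without the library labelled WT vehicle female replicate 3, Zbtb16, at -0.99 (0.0636), and Fkbp5, at -1.24 (0.06), no longer passed. From fluoxetine males it departed in Spty2d1 by 0.71 (0.000399), Sike1 by 0.48 (0.0015), Kctd7 by 0.70 (0.00222), Slc5a3 by 0.87 (0.00222), Fos by 2.40 (0.00222), Egr2 by 2.73 (0.00222), Plin4 by -2.24 (0.00757), Klhdc9 by -1.01 (0.0106), Lias by -0.38 (0.0116), Capg by -1.06 (0.0122) and B4galnt4 by -0.45 (0.0142). From lithium females it departed in Ints8 by 0.68 (0.0228), Spty2d1 by 0.57 (0.0288) and Papola by 0.54 (0.0288). From the mean of the other 5 strata it departed in Spty2d1 by 0.57 (0.000191), Egr2 by 2.37 (0.000452), Fos by 2.08 (0.000452), Egr1 by 1.17 (0.00104), Tm6sf2 by 1.58 (0.00137), Tra2a by 0.58 (0.0021), Lcmt2 by -0.56 (0.00637), Tipin by -0.50 (0.00931), Fkbp5 by -0.96 (0.0114), Klhdc9 by -0.79 (0.0115), Plin4 by -1.66 (0.0118) and Lias by -0.29 (0.0126).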

How the results depend on the processing

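Of 74 named genes called, 49 lost the call in the fit of only the compared groups and 73 with the block in those groups. Whichever single library was left out, 30 kept it, and under the other alternatives 71 kept it. None reversed. For HT against WT, 348 genes became 616 with DESeq2, 72 with only the compared groups, and 620 with 2 WT vehicle libraries left out, male replicate 2 and the one labelled female replicate 3. The difference from vehicle females, 15, became 81 with DESeq2, 8 with only those groups and 26 after removal of GC and length trends. The difference from fluoxetine males, 354, became 681, 175 and 125 under the same 3 settings and 994 without those 2 WT vehicle libraries. The difference from lithium females, 3, became 139 with DESeq2, 68 with only those groups, 194 without those 2 libraries, 5 with a filter of 50, and 0 after quantile normalisation or removal of the trends, where 2740 and 1964 genes had an unadjusted p under 0.05. The difference from the other 5 strata, 182, became 346 with DESeq2 and 370 without those 2 libraries. Immediate early genes called, 10, became 17 with edgeR, 20 with DESeq2, 6 with only the compared groups and 18 after removal of the trends. The cause of these shifts was not tested. With 1 library left out, the counts ranged from 83 to 668, 3 to 101, 78 to 770, 0 to 55 and 29 to 348 in the order above, from 7 to 18 for immediate early genes and from 4 to 13 for glucocorticoid-responsive genes. The replicate numbers showed no sign of pairing the samples, though 5 pairs are too few to settle it. Residuals of same-numbered libraries correlated at -0.253 to 0.136 over 5 pairs, and 0 of 5 HT libraries correlated best with its own number. With the number as a block in all 59 libraries 321 genes passed. With the block in the 10 libraries alone 1 gene passed (2405 at an unadjusted p under 0.05), 0 immediate early genes and 1 glucocorticoid-responsive gene, and Ash1l, at -0.35, had an adjusted p of 0.129, against 6.58e-14 to 0.129 over all alternatives. A fit of only the compared groups could not be set apart for the difference from the other 5 strata, which uses all groups.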

Other observations

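The genes given here belong to none of the lists and were picked after their values were seen, so they are single called genes and no test of a group was made. Clk1, a kinase of splicing factors, averaged a normalised count of 2902 ± 409 in HT and 1877 ± 293 in WT (SD, n = 5 each), a log2 fold change of 0.63 ± 0.13 (limma, adjusted p = 0.00372). Its relative Clk4 averaged 1744 ± 129 in HT and 1307 ± 120 in WT, at 0.42. The splicing factor gene Srsf3 averaged 4104 ± 440 in HT and 3085 ± 182 in WT, at 0.41. In Clk1, Clk4 and Srsf3 the genotypes did not overlap. Srsf7 was at 0.43, Srsf10 at 0.43 and Hnrnph1 at 0.42, each called with overlap.

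Klf15, a transcription factor known as a glucocorticoid target, averaged a normalised count of 464 ± 72.1 in HT and 645 ± 57.7 in WT, a log2 fold change of -0.49 ± 0.12 (limma, adjusted p = 0.0233), without overlap. Hsd11b1, the enzyme that regenerates active glucocorticoid, averaged 286 ± 48.9 in HT and 415 ± 85.1 in WT, at -0.53 ± 0.15 (limma, adjusted p = 0.0445), with overlap. These calls were not repeated with single libraries left out.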
